A study of Mus musculus with 6 samples.

Results

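The genes described here are 45 non-collagen genes of the extracellular matrix: the glycoproteins, proteoglycans, laminins and lysyl oxidases. They were taken by name from the 49328 complete rows of a table of gene expression in cultured mouse mesenchymal stromal cells (MSCs, the adherent stromal cells of bone marrow), and all 45 were found there. The cells came from digested, unfractionated marrow of CB6F1 mice (a laboratory F1 hybrid) with aGVHD. In this disease, acute graft-versus-host disease, immune cells of the graft injure the tissues of the host. The culture medium was DMEM (high glucose) with FBS, penicillin and streptomycin. In culture, 3 libraries were made from cells given a compound labelled only R (0.5 um, the unit as labelled) and 3 from cells given its vehicle, DMSO. Disease, strain and medium were the same in both groups, so neither group shows cells of healthy mice. The labels do not say how many animals or cultures the libraries came from, whether animals were pooled, how long R was given or whether the cells were purified. The p-values below therefore measure the spread between these libraries, which may be technical.

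The matrix is the secreted network to which cells attach and in which growth factors are held. Fibrillin microfibrils serve as the scaffold on which elastin is laid down, fibulins and EMILINs help assemble the fibre, and lysyl oxidases crosslink elastin and collagen. Basement membranes are sheets of laminin trimers joined to collagen IV by nidogen and perlecan. Small leucine-rich proteoglycans bind collagen fibrils and set their spacing, and matricellular proteins such as thrombospondins, SPARC and tenascin modulate how cells hold on to the matrix. In bone marrow these molecules are made mainly by stromal and endothelial cells, and several, fibronectin, thrombospondin 1 and TGFBI among them, are made by macrophages as well.

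Levels are in FPKM, a read number scaled to gene length and sequencing depth. Of the 45 genes, 37 reached 1 FPKM in at least 3 of the 6 libraries and were tested with limma on log2(FPKM + 1). The other 8 were too low. Changes are R minus vehicle on that scale, with the moderated standard error (SE), and the Benjamini-Hochberg adjustment ran over all 11862 genes kept. Averages are given as means ± SD with n = 3.

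The depth estimated from the values was 17070000 to 21750000 reads per library. Of the 11 stromal markers examined 8 were kept, and the 11 together summed to between 641 and 1052 FPKM in R libraries and between 355 and 721 FPKM in vehicle libraries. Col1a1 was the largest part of these sums, with 479 ± 136 FPKM in R and 214 ± 75.7 FPKM in vehicle. Of the 8 kept, 4 had a positive and 4 a negative change, the median was 0.15, and 0 passed the threshold. Thy1 (0.0554 to 1.58 FPKM), Nt5e (0.0885 to 0.947 FPKM) and Lepr (0.0332 to 0.22 FPKM), which often serve to define MSCs, were low in both groups. Thy1 was too low to be tested, and each of its R libraries (0.0554 to 0.297 FPKM) lay below each vehicle library (0.668 to 1.58 FPKM). Other markers of the list were not low: Eng had 22.2 to 62.2 FPKM, Pdgfrb 27.9 to 63.5 FPKM and Cxcl12 14.1 to 168 FPKM. Pdgfra had 1.78 to 6.16 FPKM. Macrophage transcripts were abundant in each library: 17 markers summed to 17715, 15249.5 and 14022 FPKM in R replicates 1, 2 and 3, and in vehicle to 22948, 19204 and 17230 FPKM in replicates 1, 2 and 3. Of the 16 kept macrophage markers 15 had a negative change, 3 of which passed the threshold (Itgam, Msr1 and Aif1), where 4.43% of all kept genes were called lower. Their median was -0.51, and none of the 17 was at 0. At an unadjusted p under 0.05 limma had 0 higher and 10 lower, beside 11.4% and 12.6% of all kept genes. In 10 of the 16 each R library lay below each vehicle library, where 15.5% of all kept genes were so separated.

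Tested matrix genes were more often higher than lower in R, but few of the changes passed the adjusted threshold. Of the 37 tested, 3 rose in R (Thbs1, Sparc and Lamb2), 0 fell and 34 did not pass an adjusted p of 0.05 in limma. Among all kept genes the same test called 6.82%, with 2.39% higher and 4.43% lower in R. At an unadjusted p under 0.05, limma had 12 members higher and 2 lower, beside 11.4% and 12.6% of all kept genes. The change was positive in 27 of the 37 (73% beside 49.3% of all kept genes), and the median was 0.38 beside -0.0037. In 8 of the 37 tested members each R library lay above each vehicle library and in 0 each lay below, where 13.9% of all kept genes were separated upwards and 15.5% downwards. Matn2 reached 1 FPKM only in the R libraries. Aspn and Lama5 reached it in each R library, but Aspn not in vehicle replicate 1 (0.0747 FPKM) and Lama5 not in vehicle replicate 3 (0.448 FPKM). Matn2, Aspn and Lama5 thus entered the test through the group in which they were higher. All of them are among the 27, and Matn2 and Aspn also among the 12 and the 8, where they support nothing about the members. Vcan, whose change was negative, reached 1 FPKM in each vehicle library but not in R replicate 1 (0.8775 FPKM). Because these are cultures of mixed cells, fewer cells of a type and less RNA per cell cannot be told apart.

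The number of members higher in R changed when 1 library was left out. It was 0 without R replicate 1, 1 without R replicate 2, 0 without R replicate 3, 1 without vehicle replicate 1, 4 without vehicle replicate 2 and 2 without vehicle replicate 3. Such fits have fewer libraries, and the count over all kept genes moved too. From 284 higher in the main fit it went to 119, 86 and 140 without R replicate 1, 2 or 3. Without vehicle replicate 1, 2 or 3 it was 63, 113 and 352. The number of members higher was also 0 when no filter on low values was set, which raised the number of genes tested.

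**Figure D1:**
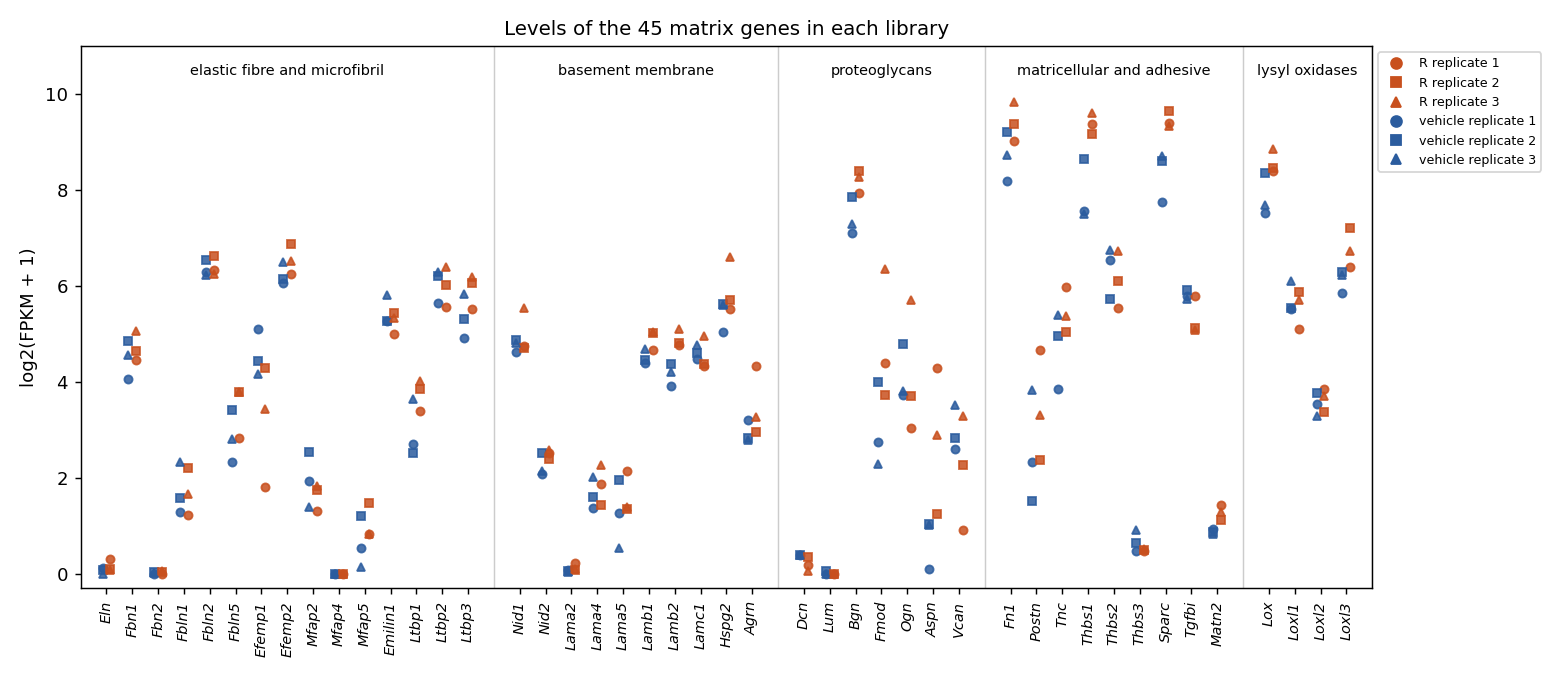
Level of each of the 45 matrix genes as log2(FPKM + 1) (y axis) in the 3 vehicle (blue) and 3 R libraries (orange), by class; marker shapes give the replicate number. Fn1, Thbs1, Sparc, Lox and Bgn have the highest means in both groups, while Mfap4, Lum, Fbn2, Eln, Lama2 and Dcn lie near 0. The lowest vehicle library of Bgn (136 FPKM) is not far above the highest of Thbs2 (107 FPKM).

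A few genes made up most of the matrix signal. Fn1, Sparc, Thbs1, Lox and Bgn together held 72.2% to 74% of the summed FPKM of the 45 members in R and 57.5% to 69% in vehicle. By mean FPKM in vehicle they ranked 72, 96, 146, 157 and 241 among the kept genes, and in R 36, 35, 39, 79 and 116. The 45 genes together summed to 3294, 3739.76 and 4293 FPKM in R replicates 1, 2 and 3 and to 1759, 2803 and 2349 FPKM in vehicle replicates 1, 2 and 3. That is 0.993% to 1.37% of all FPKM in R and 0.522% to 0.854% in vehicle, so the groups did not overlap. Within R, the library with the most macrophage transcript (replicate 1) had the least matrix transcript and the library with the least (replicate 3) had the most. Vehicle replicate 1 had the most macrophage and the least matrix transcript of all 6. The other two vehicle libraries did not follow that order, since vehicle replicate 3 had less of both than vehicle replicate 2. The part of the macrophage share in the changes below was not tested.

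**Figure D2:**
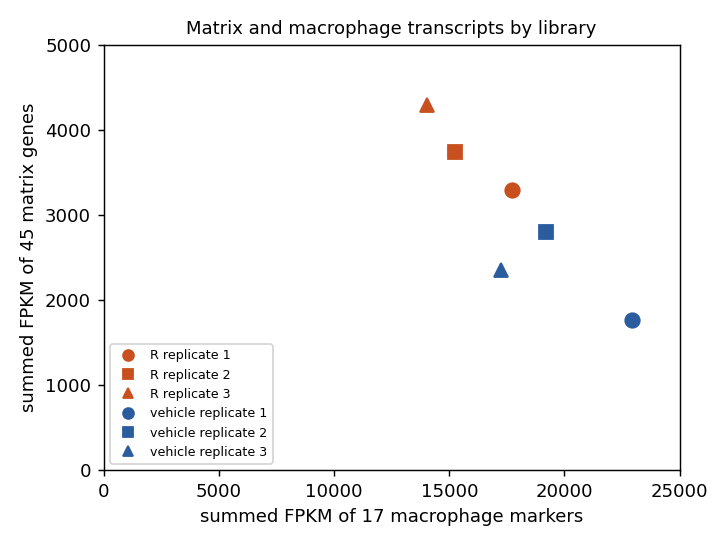
Summed FPKM of the 45 matrix genes (y axis) against the summed FPKM of 17 macrophage markers (x axis), with 1 point per library (orange, R; blue, vehicle). Vehicle replicate 1 is lowest in matrix (1759) and highest in macrophage transcripts (22948), and R replicate 3 is the reverse (4293 and 14022).

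Among the matricellular and adhesive glycoproteins, 8 of 9 genes were tested, 2 rose and 0 fell. The class median was 0.71, and at an unadjusted p under 0.05 limma had 4 higher and 1 lower. The largest called change was that of Thbs1 (chromosome 2, 118111876 to 118127133, GRCm38), which encodes thrombospondin 1, a trimeric protein that binds CD36 and CD47 and activates latent TGF-beta. It stood at 666, 575 and 779 FPKM in R replicates 1, 2 and 3 and at 187, 398 and 179 FPKM in vehicle replicates 1, 2 and 3. Each R library was above each vehicle library, and vehicle replicate 2 stood apart from the other two vehicle libraries. The mean in vehicle was 255 ± 124 FPKM and in R 673 ± 102 FPKM, a 2.64-fold rise (log2 change 1.49, SE 0.31, adjusted p = 0.034).

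Sparc (chromosome 11, 55394500 to 55423183) encodes osteonectin, a collagen-binding protein that is plentiful in bone. It had 672, 804 and 646 FPKM in R and 214, 387 and 418 FPKM in vehicle replicates 1, 2 and 3. The groups did not overlap, and the gap between the highest vehicle and the lowest R library was wider than the range within R. The means were 339.8 ± 109.9 FPKM without R and 707 ± 84.8 FPKM with it, a 2.08-fold rise (log2 change 1.11, SE 0.25, adjusted p = 0.047).

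Fn1, which encodes fibronectin, the integrin ligand on which other matrix proteins assemble, had the highest mean of the class in vehicle. Its values were 520.1, 662 and 906 FPKM in R and 291, 592 and 424 FPKM in vehicle. The groups overlapped, since vehicle replicate 2 lay above R replicate 1, and the change did not pass (log2 change 0.7, SE 0.29, adjusted p = 0.2).

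The paralogue of Thbs1 did not follow it. Thbs2, which encodes thrombospondin 2, a second trimeric thrombospondin, had 45.6, 67.9 and 105 FPKM in R and 91.8, 52 and 107 FPKM in vehicle (log2 change -0.21, adjusted p = 0.77). The ratio of Thbs1 to Thbs2 was 14.6, 8.47 and 7.39 in R and 2.03, 7.65 and 1.68 in vehicle. The groups overlapped in this ratio through vehicle replicate 2, and the difference between the paralogues was not tested. Thbs3 was under 1 FPKM in each library (33 to 86 reads by the depth estimate).

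The other members of the class did not pass. Tnc, tenascin C of wounds and tumours, had 44.9 ± 15.6 FPKM in R and 28.2 ± 14 FPKM in vehicle (log2 change 0.73, adjusted p = 0.33). Postn, periostin of bone surfaces, was 24.5, 4.2 and 8.86 FPKM in R and 4.05, 1.86 and 13.2 FPKM in vehicle, a spread within groups as wide as the difference between them. Tgfbi, a TGF-beta-induced adhesion protein, was the member of this class with the most negative change: 54.7, 33.9 and 32.9 FPKM in R and 54.5, 59.3 and 52.1 FPKM in vehicle (log2 change -0.48, adjusted p = 0.18). R replicate 1 lay among the vehicle libraries, and without it the fall of Tgfbi passed (adjusted p = 0.021). None of the other fits that left out 1 library called it (adjusted p up to 0.39). Matn2, matrilin 2, had 1.69, 1.18 and 1.43 FPKM in R and 0.917, 0.835 and 0.782 FPKM in vehicle (log2 change 0.4, adjusted p = 0.12).

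**Figure D3:**
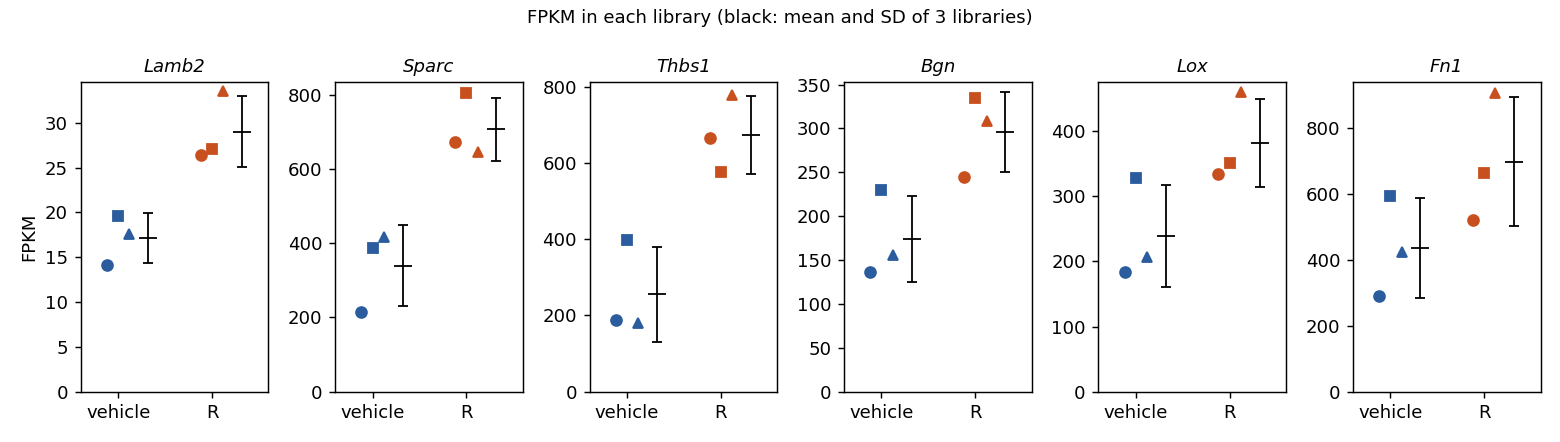
FPKM (y axis, from 0) of the 3 genes that passed the threshold (Lamb2, Sparc, Thbs1) and of Bgn, Lox and Fn1 in each vehicle (blue) and R library (orange), with the mean and SD of 3 libraries in black. The groups do not overlap in the first 5; in Fn1 vehicle replicate 2 (592) lies above R replicate 1 (520.1).

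Basement membrane genes were tested in 9 of 10 cases; 1 rose, 0 fell and 8 had a positive change, with a median of 0.38. At an unadjusted p under 0.05 limma had 2 higher and 0 lower. The gene that rose was Lamb2 (chromosome 9, 108479736 to 108490530), which encodes the laminin beta 2 chain. It had 26.4, 27.1 and 33.5 FPKM in R and 14.1, 19.6 and 17.6 FPKM in vehicle replicates 1, 2 and 3. The R libraries all lay above the vehicle libraries, and both groups were compact. The vehicle mean was 17.1 ± 2.79 FPKM and the R mean 29 ± 3.95 FPKM, a 1.69-fold rise (log2 change 0.73, SE 0.14, adjusted p = 0.031).

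Lamb2 was also the only member with a STAT-type motif in its RefSeq promoter windows (250 bases before to 50 after a start site), for which reason the sequence is shown. The 124 bases of its window that lie before the first annotated exon (GRCm38.p6, chr9:108479612-108479735, plus strand) are given 5′ to 3′, with the match to TTCNNNGAA in capitals.
Lamb2: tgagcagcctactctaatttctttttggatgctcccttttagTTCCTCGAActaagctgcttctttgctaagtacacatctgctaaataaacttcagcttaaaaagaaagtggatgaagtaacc
RefSeq windows were found for 29 of the 45 members (38 windows), and neither Thbs1 nor Lox was among them. The motif TTCNNNGAA, the same on both strands, was in 1 of the 38 member windows and in 8.3% of all 32851 windows. Of 3 further motifs, searched on both strands, the SMAD-type motif CAGACA was in 12 member windows (31.6% beside 21% of all windows). The TEAD-type motif CATTCC was in 3 member windows (7.89% beside 14.7%). The TATA-box letters TATAAA were in 6 (15.8% beside 13.6%). Windows of 1 gene can overlap, and a match to letters is not a bound site.

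The other beta and gamma chains did not pass. Lamb1, the beta 1 chain, which takes the place of beta 2 in other laminin trimers, had 24.2, 31.3 and 31.7 FPKM in R and 19.9, 21 and 24.8 FPKM in vehicle (log2 change 0.39, SE 0.13, adjusted p = 0.13). Lamc1, the gamma 1 chain found in most laminin trimers, was 23 ± 6.11 in R and 23.6 ± 2.37 FPKM in vehicle (log2 change -0.06, adjusted p = 0.88). The ratio of Lamb2 to Lamb1 was 1.09, 0.865 and 1.06 in R and 0.708, 0.935 and 0.709 in vehicle, so that the groups overlapped.

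The alpha chains, which carry most of the cell-binding sites of laminins, were far below the beta and gamma chains. Lama4 had 2.72 ± 1.06 FPKM in R and 2.23 ± 0.766 FPKM in vehicle, and Lama5 2.2 ± 1.06 and 1.58 ± 1.22 FPKM. Lama2, not tested, was at 0.0336 to 0.169 FPKM (11 to 60 reads), with the R libraries above the vehicle libraries.

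Hspg2 (perlecan, the heparan sulphate proteoglycan of basement membranes) had the highest mean of the class, with 45, 51.5 and 95.5 FPKM in R and 31.8, 48.6 and 47.5 FPKM in vehicle. R replicate 3 was far above the rest and the change did not pass (log2 change 0.52, SE 0.29, adjusted p = 0.33). Agrn (agrin, which clusters acetylcholine receptors at the nerve-muscle junction) was raised in R replicate 1 alone, with 19.2, 6.73 and 8.64 FPKM in R, while the vehicle libraries lay between 5.91 and 8.17 FPKM. The nidogens, which bridge laminin and collagen IV, had log2 changes of 0.23 (Nid1) and 0.25 (Nid2), neither past the threshold. Of the exon bases of Nid2, 8.45% lie opposite exons of Rtraf, which reached 46.2 FPKM, while Nid2 had 3.26 to 5.02 FPKM. The strandedness of the libraries is not given in the sources used here, so the value of Nid2 is uncertain.

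**Figure D4:**
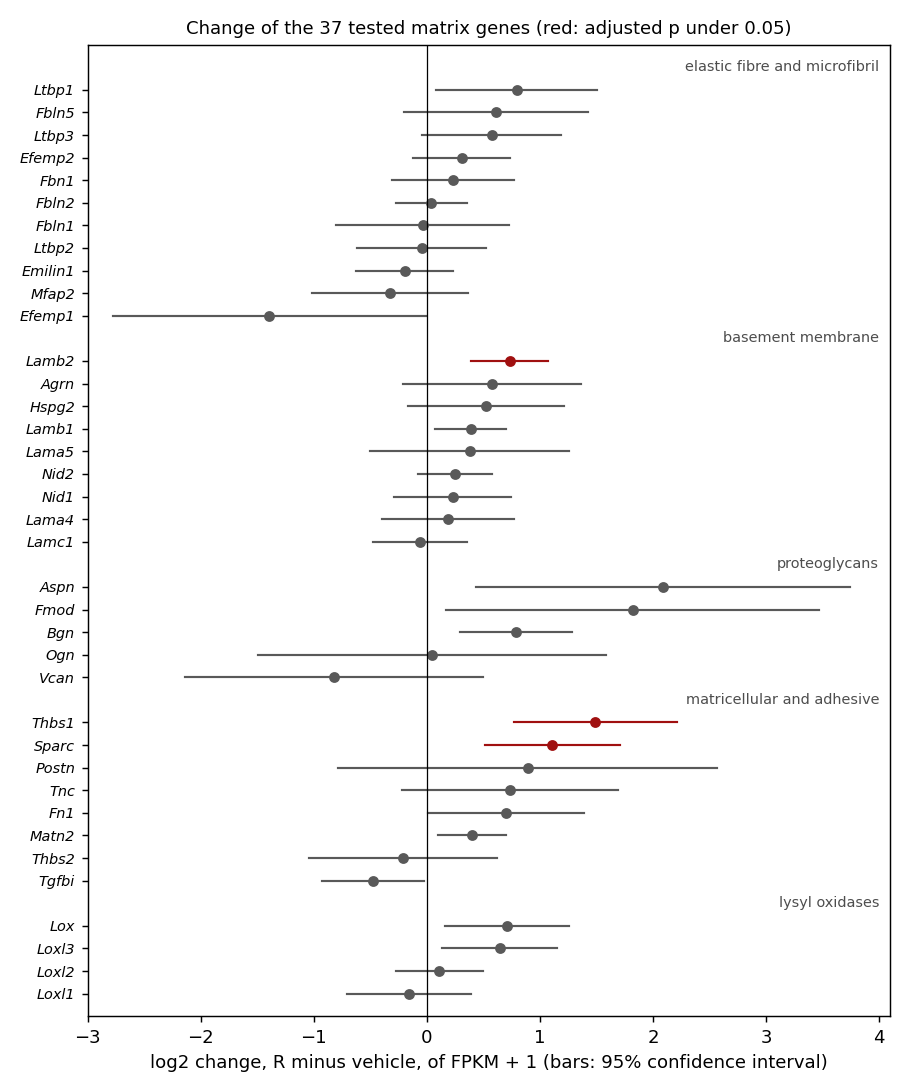
Change of the 37 tested matrix genes between R and vehicle on the log2(FPKM + 1) scale (x axis) with 95% confidence intervals of the limma fit, by class; genes past an adjusted p of 0.05 are red. Thbs1 (1.49), Sparc (1.11) and Lamb2 (0.73) passed, while Aspn (2.09) and Fmod (1.82) had larger changes with far wider intervals.

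Proteoglycans gave the largest and least certain differences. Of 7 genes 5 were tested, 0 rose and 0 fell, while at an unadjusted p under 0.05 limma had 3 higher and 0 lower. The 2 that were not tested were Dcn (decorin) and Lum (lumican), the usual small leucine-rich proteoglycans of fibroblasts. Dcn, whose R libraries were all below the vehicle libraries, lay between 0.0474 and 0.276 FPKM in R and between 0.311 and 0.321 FPKM in vehicle (5 to 37 reads). Lum was listed at 0 in 5 of the libraries and had 2 reads in vehicle replicate 2.

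Bgn, which encodes biglycan, a proteoglycan of bone and cartilage matrix, was the predominant member. It had 245, 334 and 308 FPKM in R and 136, 229.7 and 155 FPKM in vehicle replicates 1, 2 and 3. No R library was below a vehicle library, but the distance between vehicle replicate 2 and R replicate 1 was small. Vehicle libraries averaged 174 ± 49.3 FPKM, R libraries 296 ± 45.8 FPKM (log2 change 0.79, SE 0.21, adjusted p = 0.072), and the rise passed without vehicle replicate 2 (adjusted p = 0.034). Of the 6 fits that left out 1 library it passed in this 1 only, and adjusted p reached 0.22 in the others.

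Fmod, Aspn and Ogn varied widely between libraries of the same group. Fmod, fibromodulin of tendon, had 20.1, 12.3 and 80.3 FPKM in R and 5.72, 14.9 and 3.85 FPKM in vehicle (log2 change 1.82, SE 0.7, adjusted p = 0.17). Its R mean rested on R replicate 3. Aspn, asporin of periosteum and cartilage, had 18.5, 1.37 and 6.44 FPKM in R and 0.0747, 1.07 and 1.02 FPKM in vehicle (log2 change 2.09, SE 0.7, adjusted p = 0.13). The R libraries were all above vehicle, R replicate 2 by a small margin, and the rise of Aspn passed without that library (adjusted p = 0.04). It passed in none of the other fits that left out 1 library (adjusted p up to 0.35). Aspn reached 1 FPKM in each R library but not in vehicle replicate 1. It thus entered the test through the group in which it was higher, and its separation and its call without R replicate 2 support nothing about the class. Ogn, osteoglycin, had 7.26, 12.1 and 51.5 FPKM in R and 12.3, 26.6 and 13 FPKM in vehicle (log2 change 0.04, SE 0.65, adjusted p = 0.98). Its change was negative without R replicate 3 (-0.73), vehicle replicate 1 (-0.14) or vehicle replicate 3 (-0.11).

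Aspn and Ogn are neighbours on chromosome 13 (49544443 to 49567565 and 49608046 to 49624501, plus strand), with Omd (osteomodulin, 49582462 to 49592822) between them. Their levels did not run together: the ratio of Aspn to Ogn was 2.55 in R replicate 1, 0.113 and 0.125 in R replicates 2 and 3, and 0.00606 to 0.0781 in vehicle. Omd had 1.88, 0.47 and 13.6 FPKM in R and 0.26, 0.38 and 0.778 FPKM in vehicle, highest in R replicate 3 as was Ogn. Because these adjacent genes differed, the 250 bases before their RefSeq starts are shown (GRCm38.p6, plus strand, chr13:49544193-49544442 for Aspn and chr13:49607765-49608014 for Ogn), with matches to TATAAA or CATTCC on either strand in capitals.
Aspn: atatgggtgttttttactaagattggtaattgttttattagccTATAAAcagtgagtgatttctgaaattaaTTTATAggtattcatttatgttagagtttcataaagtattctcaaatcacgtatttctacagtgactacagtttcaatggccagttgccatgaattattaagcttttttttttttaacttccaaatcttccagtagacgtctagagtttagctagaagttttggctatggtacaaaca
Ogn: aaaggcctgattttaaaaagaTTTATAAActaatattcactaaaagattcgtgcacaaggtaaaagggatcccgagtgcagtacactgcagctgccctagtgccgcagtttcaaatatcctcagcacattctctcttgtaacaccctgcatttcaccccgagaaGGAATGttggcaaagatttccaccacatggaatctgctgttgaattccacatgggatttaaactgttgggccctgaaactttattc
Both upstream stretches are AT-rich (30% and 42% G and C, beside a median of 52.4% over all windows). Each holds the TATAAA letters on both strands, overlapping in Ogn, and Ogn alone holds the CATTCC letters, on the minus strand.

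Vcan, the large chondroitin sulphate proteoglycan versican, had 0.8775, 3.84 and 8.79 FPKM in R and 5.04, 6.16 and 10.5 FPKM in vehicle. The groups overlapped, R replicate 1 was the lowest of all libraries, and the change did not pass (log2 change -0.83, adjusted p = 0.42).

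Lysyl oxidases were all tested; 0 of 4 rose and 0 fell, while at an unadjusted p under 0.05 limma had 2 higher and 0 lower. Lox, the copper-dependent enzyme that starts the crosslinks of collagen and elastin, was by far the most abundant. It had 335, 351 and 460.3 FPKM in R and 183, 328 and 206 FPKM in vehicle replicates 1, 2 and 3. The groups did not overlap, though vehicle replicate 2 came within a few FPKM of R replicate 1, and the change did not pass (log2 change 0.71, SE 0.23, adjusted p = 0.12). Without vehicle replicate 2 it passed (adjusted p = 0.044), but in none of the other fits that left out 1 library (adjusted p up to 0.35).

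Loxl3, a relative that also oxidises collagen lysines, had 83.1, 147 and 104 FPKM in R and 57.1, 77.3 and 74.4 FPKM in vehicle, again without overlap (log2 change 0.65, SE 0.22, adjusted p = 0.13). Of its exon bases 11.6% lie opposite exons of Htra2, which reached 20.8 FPKM, so its value is uncertain without strand. Loxl1, which acts chiefly on elastin, had 47.5 ± 12.4 FPKM in R and 52.8 ± 13.1 FPKM in vehicle (log2 change -0.16, 95% confidence interval -0.71 to 0.39). Loxl2 had 11.6 ± 2.02 and 10.7 ± 1.91 FPKM (log2 change 0.11, 95% confidence interval -0.27 to 0.49).

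Elastic fibre and microfibril genes gave the smallest median of the 5 classes, 0.04. Of 15 genes 11 were tested, 0 rose, 0 fell, and the signs were 6 positive and 5 negative. At an unadjusted p under 0.05 limma had 1 higher and 1 lower, and the groups overlapped in each of the 11. The cells had microfibril transcripts but next to no elastin: Eln had 0 to 0.244 FPKM (0 to 43 reads), beside 25.7 ± 6.02 FPKM of the fibrillin gene Fbn1 in R and 22 ± 6.08 FPKM in vehicle. The second fibrillin gene, Fbn2, had 1 to 11 reads per library. Mfap4 was listed at 0 in every library, and Mfap5 had 0.0975 to 1.78 FPKM.

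Efemp2 (fibulin 4), which brings lysyl oxidase to elastin, had the highest mean of the class in R. It had 75.2, 116 and 90.2 FPKM in R and 65.6, 70.1 and 89.5 FPKM in vehicle, with overlap (log2 change 0.31, SE 0.18, adjusted p = 0.36). Fbln2 (fibulin 2) had the highest mean in vehicle and was nearly equal in the groups, with 83.7 ± 12 and 81.2 ± 9.77 FPKM (log2 change 0.04, 95% confidence interval -0.27 to 0.35). Fbln5 (fibulin 5), which binds elastin and integrins, had 10.6 ± 3.89 and 6.57 ± 2.9 FPKM (log2 change 0.61, adjusted p = 0.33). Efemp1 (fibulin 3) had the most negative change of all members: 2.48, 18.6 and 9.81 FPKM in R and 33.4, 20.6 and 17 FPKM in vehicle (log2 change -1.39, SE 0.59, adjusted p = 0.21). R replicate 2 lay among the vehicle libraries and R replicate 1 far below them.

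None of the 3 latent TGF-beta binding protein genes passed; their proteins belong to the microfibrils, and some tether the inactive cytokine there. Ltbp1 had 9.46, 13.4 and 15.1 FPKM in R and 5.53, 4.73 and 11.4 FPKM in vehicle (log2 change 0.79, SE 0.3, adjusted p = 0.17). The overlap came from vehicle replicate 3, and without it the rise passed (adjusted p = 0.024). That was 1 of 6 fits that left out 1 library, and in the others adjusted p reached 0.43. Ltbp3 had 61.1 ± 14.2 and 41.4 ± 13.8 FPKM (log2 change 0.58, adjusted p = 0.24). Ltbp2, whose protein binds fibrillin but not latent TGF-beta, had 64.4 ± 18.1 and 66.1 ± 15.2 FPKM (log2 change -0.05). The remaining tested genes of the class, Emilin1, Mfap2 and Fbln1, had changes of -0.2, -0.33 and -0.04.

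The calls of the 3 genes that rose were close to the threshold. Leaving out any library but vehicle replicate 2 ended the call of Lamb2 (limma, adjusted p = 0.052 to 0.088) as did testing unfiltered genes (adjusted p = 0.089). Sparc lost it without any R library or vehicle replicate 2 (adjusted p = 0.083 to 0.13), without the filter (adjusted p = 0.15) and with a constant prior variance (adjusted p = 0.0502). Of the fits that left out 1 library, only that lacking vehicle replicate 2 kept the call of Thbs1 (the others, adjusted p = 0.066 to 0.12), and it was lost when no filter was set (adjusted p = 0.12). The log2 change stayed positive in each of these fits, from 0.61 to 0.83 for Lamb2, 0.81 to 1.29 for Sparc and 1.29 to 1.86 for Thbs1.

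**Figure D5:**
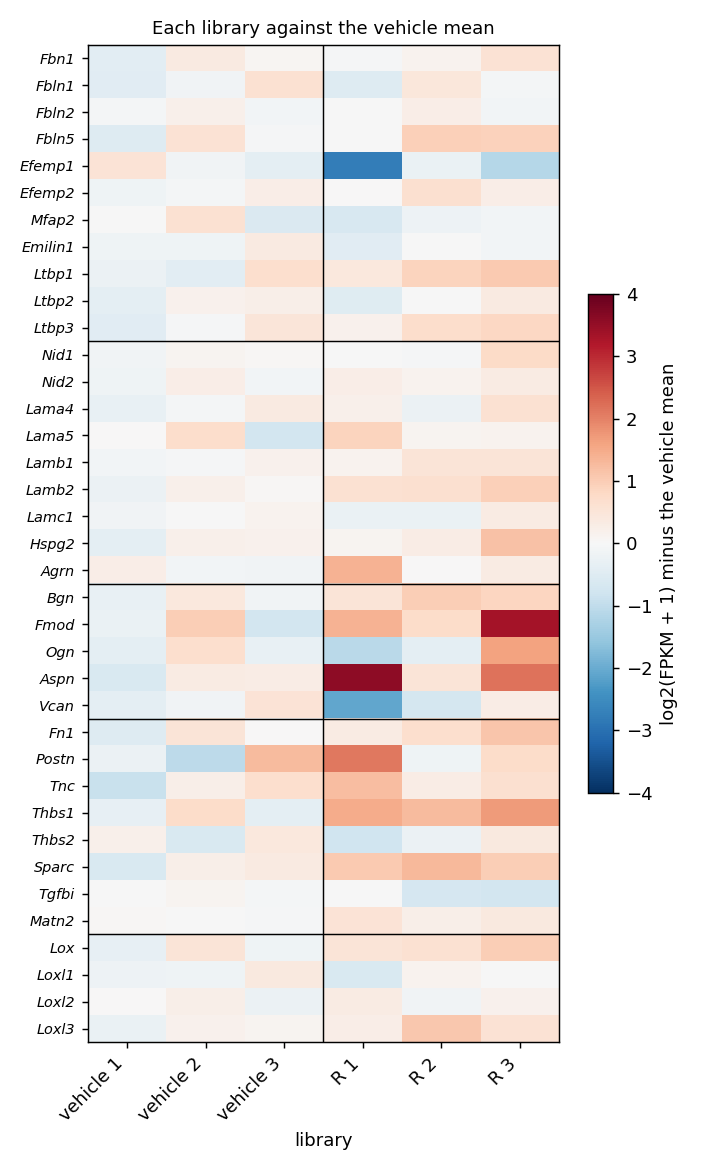
Each library's log2(FPKM + 1) minus the vehicle mean (colour scale) for the 37 tested matrix genes (rows, by class) in the 6 libraries (columns). Thbs1, Sparc and Lamb2 are above the vehicle mean in each R library, whereas Fmod and Ogn stand out in R replicate 3, Aspn and Postn in R replicate 1, and Vcan and Efemp1 are lowest in R replicate 1.

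Matrix genes varied more between libraries of a group than most genes did. The median within-group SD of log2(FPKM + 1) was 0.39 over the 37 members and 0.15 over all 11862 kept genes, and 25 of the 37 were above the 90th percentile of all kept genes (0.34). The widest were Postn (1.16), Fmod (1.14), Aspn (1.14) and Ogn (1.07), and the narrowest Matn2 (0.11). At the 0.782 to 1.69 FPKM of Matn2 this scale shrinks differences, so its SD does not mark it as the steadiest member. R replicate 1 was the lowest R library in 22 of the 37 genes and R replicate 3 the highest in 19. Vehicle replicate 1 was the lowest vehicle library in 23 and vehicle replicate 2 the highest in 19. The libraries with the most macrophage transcript in their group were thus those lowest in the most matrix genes, and its part in this order was not tested.

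Related matrix genes that are not among the 45 were called in both directions. Of 119 genes in 6 lists (other basement membrane, elastic fibre, proteoglycan and matricellular genes, crosslinking and folding enzymes, and enzymes of glycosaminoglycan synthesis), 74 were tested, 5 rose and 5 fell. Among all kept genes 2.39% rose and 4.43% fell. The change was positive in 58 of the 74 (78.4%, beside 73% of the tested members and 49.3% of all kept genes), with a median of 0.2. The excess of positive changes was thus not particular to the 45. At an unadjusted p under 0.05 limma had 22 of the 74 higher and 6 lower, beside 11.4% and 12.6% of all kept genes. The number of calls among the 74 was 10, and it was 3, 2 and 5 when R replicate 1, 2 or 3 was left out, 1 and 6 when vehicle replicate 1 or 2 was, and 2 with no filter.

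Basement membrane genes outside the members held 3 of the rises among 10 tested of 15, with a median of 0.55. Col4a1 and Col4a2, which lie head to head and encode the main collagen IV chains, both rose. Col4a1 averaged 55.6 ± 17.6 FPKM in vehicle, beside 110.1 ± 8.26 in R (log2 change 1.02, adjusted p = 0.032), and Col4a2 had 40.2 ± 10.9 and 81.9 ± 11.3 FPKM (log2 change 1.03, adjusted p = 0.026). Ntn4, a laminin-binding netrin, rose too, from a vehicle mean of 1.22 ± 0.351 to an R mean of 3.74 ± 1.51 FPKM (log2 change 1.06, adjusted p = 0.045). It reached 1 FPKM in each R library but not in vehicle replicate 1 (0.846 FPKM). It thus entered the test through the group in which it was higher, and its call supports nothing about the list. Among 10 tested of 22 other matricellular genes, Igfbp7, a secreted IGF-binding protein, rose, from a vehicle mean of 307.5 ± 61.8 to an R mean of 612 ± 110.2 FPKM (log2 change 1, adjusted p = 0.028).

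Of 17 crosslinking and folding genes 16 were tested, 1 rose and 2 fell. P4ha3, a collagen prolyl hydroxylase subunit, rose from 9.52 ± 2 to 17.4 ± 1.76 FPKM (adjusted p = 0.025). Plod1, a collagen lysyl hydroxylase, fell to 41.1 ± 0.666 FPKM in R, beside 56.1 ± 3.14 FPKM in vehicle (log2 change -0.44, adjusted p = 0.023). Tgm2, a transglutaminase that crosslinks fibronectin and that macrophages also make, fell to 85.4 ± 16.6 FPKM, beside 181 ± 22 FPKM in vehicle (log2 change -1.08, adjusted p = 0.0097).

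Of 30 other proteoglycan and hyaluronan genes 11 were tested, 0 rose and 2 fell. The 2 were Srgn, serglycin of blood cell granules (19.8 ± 1.22 to 11 ± 2.27 FPKM, adjusted p = 0.022), and Sdc3, a syndecan (216 ± 3.05 to 153 ± 12.8 FPKM, adjusted p = 0.026). At an unadjusted p under 0.05 limma had 3 of this list higher and 2 lower. Of 25 glycosaminoglycan-synthesis genes 23 were tested, 0 rose and 1 fell, the heparan sulphate enzyme Ndst2 (log2 change -0.51, adjusted p = 0.045), while 5 were higher and 1 lower at an unadjusted p under 0.05. Of 10 other elastic fibre genes 4 were tested and 0 passed, with 1 higher and 1 lower at an unadjusted p under 0.05.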

How the data were processed

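RNA from 6 libraries (3 R, 3 vehicle) was measured by RNA sequencing, and groups were taken from the sample titles. The authors deposited 1 table of FPKM values for all genes; the submitters' processing notes name GRCm38 (mm10) as build and, with no role stated, edgeR 3.18.1. Aligner, counter, annotation and strandedness: not given in the sources used here. Identifiers were matched to GENCODE M21 on GRCm38, which gave a symbol for 49302 of 49328 complete rows, and 1 broken final row was left out. Depth was estimated from the steps of low FPKM values times summed exon length, where 98.3% to 98.4% of values under 20.5 reads were whole within 0.02 reads. Such read numbers depend on that annotation.

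The limma package (3.58.1, in R 4.3.3) was fitted to log2(FPKM + 1) (2 groups, no block, empirical Bayes with a trend), over genes with at least 1 FPKM in at least 3 libraries, at an adjusted p of 0.05. This scale understates the change of low genes. The test was run on simulated reads whose spread within groups was smaller than that of most members. That run does not show how well changes in these members would be found. The members and lists were chosen with earlier results of these data known. The alternatives were pseudocounts of 0.1 and 5, no filter, a filter at 5 FPKM, quantile normalization, equal medians, no trend, the replicate number as a block, and leaving out each library, with the genes kept over all 6. The text names the members (with every library's value for those past the threshold and the highest of each class, and for others where the libraries disagree), up to 4 genes past the threshold by smallest p from each related list, and markers or neighbours where set beside a result; Omd was chosen after its values were seen.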

Additional observations from a re-analysis of the deposited data

How the results depend on the processing

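The changes of the 37 tested members kept their sign under both other pseudocounts, no filter, quantile normalization, equal medians, no trend and the replicate block, and 30 remained to be compared under the stricter filter, with the same signs. The count of members higher in R was 0 without the filter. The matricellular class then had 0 calls, the basement membrane class 0 and the related lists 2. Over all genes limma then called 65 higher and 279 lower, beside 284 and 525 with the filter. With no trend the matricellular class had 1 call. With the replicate number as a block 5 members were higher, Bgn, Lamb2, Loxl3, Ltbp3 and Sparc, while Thbs1 no longer passed (adjusted p = 0.052 in limma), and the elastic fibre, proteoglycan, matricellular and lysyl oxidase classes had 1 call each. Same-numbered libraries did not deviate together (r = 0.14, -0.01 and -0.03 across genes), and not every library correlated best with its own number.

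Without 1 library, members higher numbered 0 to 4, members lower 0 to 1, and the median change was 0.29 to 0.40. Over all kept genes 63 to 352 were then called higher. Calls per class were 0 to 1 in each of the 5 classes, and 1 to 10 in the related lists. Signs turned for 10 members with small changes, whose values then ranged from -0.29 to 0.26 (Fbln1), -0.072 to 0.135 (Fbln2), -0.0172 to 0.40 (Lama4), -0.26 to 0.0434 (Lamc1), -0.31 to 0.068 (Loxl1), -0.0143 to 0.24 (Loxl2), -0.25 to 0.16 (Ltbp2), -0.0424 to 0.37 (Nid1), -0.73 to 0.60 (Ogn) and -0.52 to 0.0800 (Thbs2). The causes were not tested. Depth limits the 8 members below the filter, which had 0 to 115 reads in a library.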

Other observations

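Contractile and mural-cell markers were measured beside the matrix genes above. Of 9 smooth muscle and pericyte markers 6 were tested, 2 rose and 0 fell, where 2.39% of all kept genes rose and 4.43% fell. At an unadjusted p under 0.05 limma had 4 higher and 1 lower, beside 11.4% and 12.6% of all kept genes. Tagln, a calponin-family actin-binding protein, had 2.61, 2.88 and 1.95 FPKM in R and 0.589, 1.42 and 0.427 FPKM in vehicle (adjusted p = 0.046). Acta2, smooth muscle actin, had 596, 734 and 411 FPKM in R and 127, 406 and 212 FPKM in vehicle (adjusted p = 0.1), without overlap and with vehicle replicate 1 the lowest. The other gene called was Cspg4, the NG2 proteoglycan of pericytes (adjusted p = 0.047), which lay between 1.74 and 5.5 FPKM in R and between 0.247 and 0.55 FPKM in vehicle. It reached 1 FPKM only in R libraries, and Tagln in 3 R libraries and 1 vehicle library, so both entered the test through the group in which they were higher and their calls support nothing about the list.

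Endothelial markers, of cells that make much of the basement membrane, were low throughout: 10 of the 11 listed were in the values used, 1 was tested, and their summed level lay between 4.09 and 8.03 FPKM in R and between 2.63 and 3.5 FPKM in vehicle. Adipocyte markers summed to between 297 and 311 FPKM in R and between 208 and 328 FPKM in vehicle. The T and NK cell, neutrophil, B cell and erythroid lists summed to at most 15.4, 14.3, 0.371 and 2.39 FPKM in a library.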
